A study of Mus musculus with 4 samples.

Results

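The genes described here are 7 hypoxia targets, which cells switch on when oxygen is short, and 3 regulators of that switch, measured in mouse BV-2 microglia with and without knockdown of SIX2. The targets were Ddit4, Ndrg1, Egln3, Bnip3, Pfkfb4, Ankrd37 and Mxi1, and the regulators were Hif1a, Epas1 and Egln1. The 10 genes were taken by symbol from the 24473 genes with deposited FPKM values (fragments per kilobase of gene and per M fragments), and all 10 were among the 15733 genes expressed enough to be tested. They were chosen by results of this same contrast, so every fold change and call of a member is given as a description and supports nothing.

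BV-2 is an established line of mouse microglia, the macrophages that live in the brain. All 4 libraries came from BV-2 cells given lipopolysaccharide (LPS, a bacterial product that activates macrophages) at 100 ng/mL for 24 h. The 2 control libraries carry the genotype label WT and the 2 others the label SIX2 knockdown, SIX2 being a homeobox transcription factor. The titles begin with sh in both groups (sh c1 and sh c2 against sh s1 and sh s2), so the label WT may not mean cells without a hairpin, and the labels name no hairpin sequence, clone or culture. Oxygen was not varied in the labelled design: the growth protocol names a CO2 incubator and no arm with low oxygen.

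Hypoxia-inducible factors (HIFs) are pairs of an oxygen-regulated alpha subunit and a constant partner, ARNT. When oxygen is present, prolyl hydroxylases of the EGLN (PHD) family mark the alpha subunit for capture by VHL and destruction, and when oxygen falls the subunit survives, enters the nucleus and turns on genes for glycolysis, growth arrest, mitochondrial clearance and its own hydroxylases. In macrophages LPS is also known to raise HIF-1 alpha, both through NF-kB acting on its gene and through changes in metabolism that slow the hydroxylases. Because the alpha subunit is regulated mostly as a protein, its mRNA does not report HIF activity, and no protein was measured here.

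HIF binds DNA at a short core, ACGTG or GCGTG. Both cores were searched on both strands in RefSeq promoters of build GRCm38.p6, each 300 bases long with 250 before and 50 after a transcription start. Of 32851 promoters, 43.8% held at least 1 core, 19.6% ACGTG and 32.4% GCGTG, so a match alone is common. The E-box CACGTG, read by MYC, MAX and MXI1, holds ACGTG on both strands and was present in 7.15%. An entry was found for 8 of the 10 members, and none was found for Ndrg1 or Epas1. The sequences given here run 5′ to 3′ on the strand of the gene, with cores of either strand in capitals. They are the promoters of the target with the largest difference between groups (Ddit4), of the 2 targets with the most cores (Bnip3 and Ankrd37) and of the regulator Hif1a. Bases within an exon annotated by GENCODE M21 were left off the 3′ end. The stretches are chr10:59951835-59952020 (Ddit4, minus strand), chr7:138909520-138909756 (Bnip3, minus), chr8:45999868-46000100 (Ankrd37, minus) and chr12:73907617-73907866 (Hif1a, plus).
Ddit4: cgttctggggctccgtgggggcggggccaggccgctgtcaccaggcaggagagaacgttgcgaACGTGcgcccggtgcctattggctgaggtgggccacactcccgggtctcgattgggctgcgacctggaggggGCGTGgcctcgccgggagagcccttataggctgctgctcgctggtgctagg
Bnip3: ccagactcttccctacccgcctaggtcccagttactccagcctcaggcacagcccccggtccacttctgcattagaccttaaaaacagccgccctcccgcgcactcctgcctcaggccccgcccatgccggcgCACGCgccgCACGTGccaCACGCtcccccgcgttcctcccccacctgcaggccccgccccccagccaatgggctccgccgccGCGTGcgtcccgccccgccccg
Ankrd37: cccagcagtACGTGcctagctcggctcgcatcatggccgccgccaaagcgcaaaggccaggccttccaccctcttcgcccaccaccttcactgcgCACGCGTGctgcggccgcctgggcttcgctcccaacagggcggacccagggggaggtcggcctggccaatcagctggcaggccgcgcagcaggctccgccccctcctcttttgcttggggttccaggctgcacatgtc
Hif1a: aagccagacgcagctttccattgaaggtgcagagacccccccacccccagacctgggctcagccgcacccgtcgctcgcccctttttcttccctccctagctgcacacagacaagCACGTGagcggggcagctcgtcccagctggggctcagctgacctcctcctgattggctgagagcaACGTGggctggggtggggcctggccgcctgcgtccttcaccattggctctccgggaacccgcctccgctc

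In Ddit4 the 2 cores lay at positions -187 (ACGTG) and -115 (GCGTG), counted from the start, which has no position 0. Bnip3 held 5 cores, at positions -117, -108, -107, -99 and -35, and the pair at -108 and -107 is 1 E-box CACGTG. Ankrd37 held 4, at -241, -155, -152 and -6, the last of which lies outside the printed stretch, and 2 of them read TACGTG, a string present in 3.23% of promoters. Promoters with 4 or more cores made up 3.86% of all. Both cores contain CG, and this share was not matched for the CG content of a promoter. Hif1a, itself a regulator, held 3 cores (-135, -134 and -70), again with an E-box at the first pair. The RefSeq start used for Hif1a lies inside the annotated gene, which begins at 73901375. Egln1 held 2 and Pfkfb4 and Egln3 1 each, and of the 3 starts of Mxi1 2 held 1 core and 1 held 0. A match of letters is no evidence of binding, and enhancers were not searched.

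**Figure D1:**
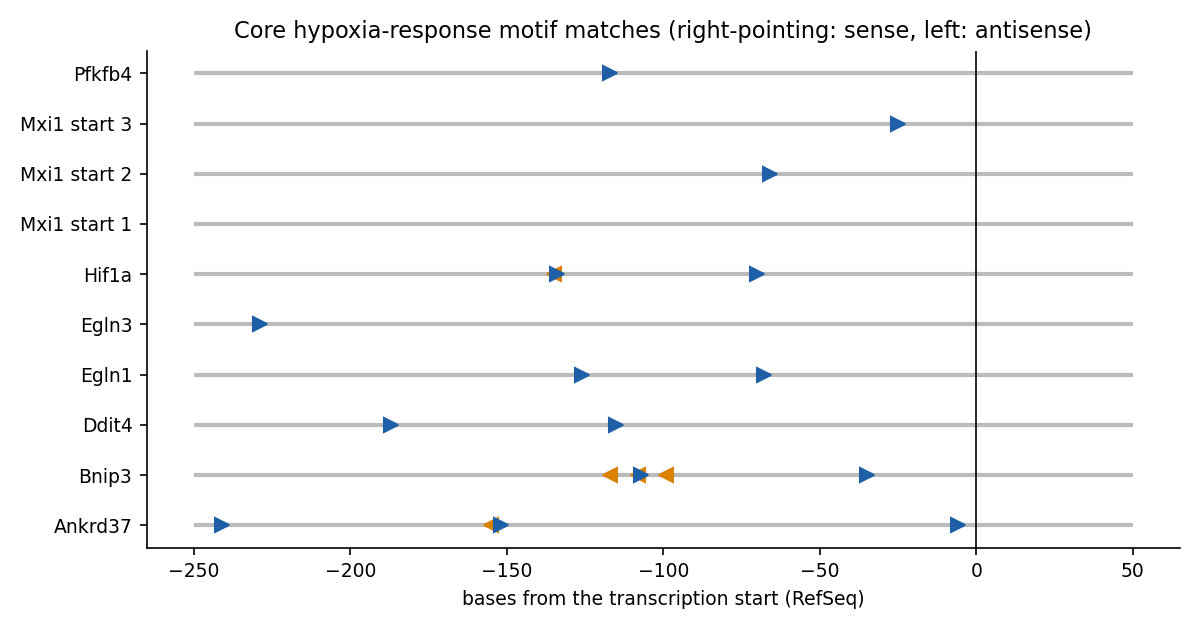
Positions of the HIF core motifs (ACGTG or GCGTG) in RefSeq promoters of 8 members, in bases from the transcription start (vertical line). Each grey bar is 1 promoter of 300 bases, right-pointing triangles are cores on the strand of the gene and left-pointing ones on the other strand; Bnip3 shows the most with 5, and the first Mxi1 start shows 0.

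The libraries held 61.0 to 75.7 M estimated counts. Low counts piled up at multiples of 4, which made up 42.1% to 47.2% of counts from 1 to 20 in a library. So 1 sequenced fragment was taken as about 4 counts, which gives 15.2 to 18.9 M fragments a library. Most low counts were not such multiples, so this factor and the values that rest on it are approximate. Six2 itself had a count of 0 in all 4 libraries, so the knockdown could not be checked on its own mRNA; the limit that this sets is 3 fragments or 12 counts a library, that is 0.159 to 0.197 counts per M counts (CPM), and covers counting error only. Over all tested genes edgeR's quasi-likelihood test called 150 (64 higher and 86 lower in knockdown; Benjamini-Hochberg adjusted p under 0.05), or 0.953%, with 0.547% called lower. The groups did not overlap, with both knockdown libraries below both controls in CPM, for 23.8% of tested genes. An unadjusted p under 0.05 was reached by 2237 genes, or 14.2%, against which the counts at that level in the lists given here are to be read. The median log2 fold change of all tested genes was -0.01. The labels do not say whether separate cultures gave the 2 libraries of each group. The spread behind the p-values may therefore be technical.

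Among the targets, Ddit4 and Ndrg1 passed this threshold and were lower in knockdown libraries, and the other 5 did not pass. All 7 targets had both knockdown libraries below both controls, and their fitted log2 fold changes ran from -1.79 (Ddit4) to -0.41 (Mxi1) with a median of -0.73. Of the 3 regulators 0 passed, their median was -0.09, and only Egln1 had groups that did not overlap. So 2 of 10 members were called lower and 8 had groups that did not overlap, next to 0.547% and 23.8% of all tested genes; since the genes were selected on this contrast, nothing can be read from those shares. These are bulk libraries, in which fewer cells of one kind and less RNA per cell cannot be told apart.

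Ddit4 encodes REDD1, an inhibitor of mTORC1 signalling induced by low oxygen, glucocorticoids and other stresses. It lies on chromosome 10 (59949669 to 59951834, minus strand, GRCm38; ENSMUSG00000020108). Its estimated counts were 5131 in control 1, 4173 in control 2, 1659 in knockdown 1 and 1056 in knockdown 2, and its FPKM in the same order 34.7, 35.2, 11.3 and 8.42. The controls were nearly alike, knockdown 2 was the lowest, and the groups were far apart: the lower control had 3.00 times the CPM of the higher knockdown library. The mean fell from 67.4 ± 0.150 to 19.5 ± 4.05 CPM (SD, n = 2 each), to 29.0% of control, a fitted log2 fold change of -1.79 ± 0.15 (SE; 95% interval -2.15 to -1.42; edgeR adjusted p = 0.0145 over all genes). Among the 9982 genes averaging 5 CPM or more, 0.12% had a lower fold change, and among all 15733 tested genes 3.65% did. Without knockdown replicate 2 the fold change was -1.59 with an adjusted p of 0.0531, and leaving out control 1 or 2 gave 0.0836 or 0.0903; over 16 alternatives the adjusted p ran from 1.15e-21 (DESeq2) to 0.150.

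Ndrg1 encodes a cytoplasmic protein linked to growth arrest and differentiation and is among the most used readouts of hypoxia. It lies on chromosome 15 (66929318 to 66969640, minus strand; ENSMUSG00000005125). Its counts were 3492, 2534, 1768 and 1438 in control 1, control 2, knockdown 1 and knockdown 2, and its FPKM 6.28, 5.67, 3.22 and 3.05. Both knockdown libraries were close to each other and well below the controls, the lower control having 1.72 times the CPM of the higher knockdown library. The mean fell from 43.4 ± 3.40 to 23.3 ± 0.820 CPM (SD, n = 2 each), a log2 fold change of -0.90 ± 0.11 (SE; edgeR adjusted p = 0.0226). With any 1 library left out the adjusted p lay between 0.122 and 0.207, and DESeq2 gave the lowest value of 16 alternatives, 3.81e-08.

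**Figure D2:**
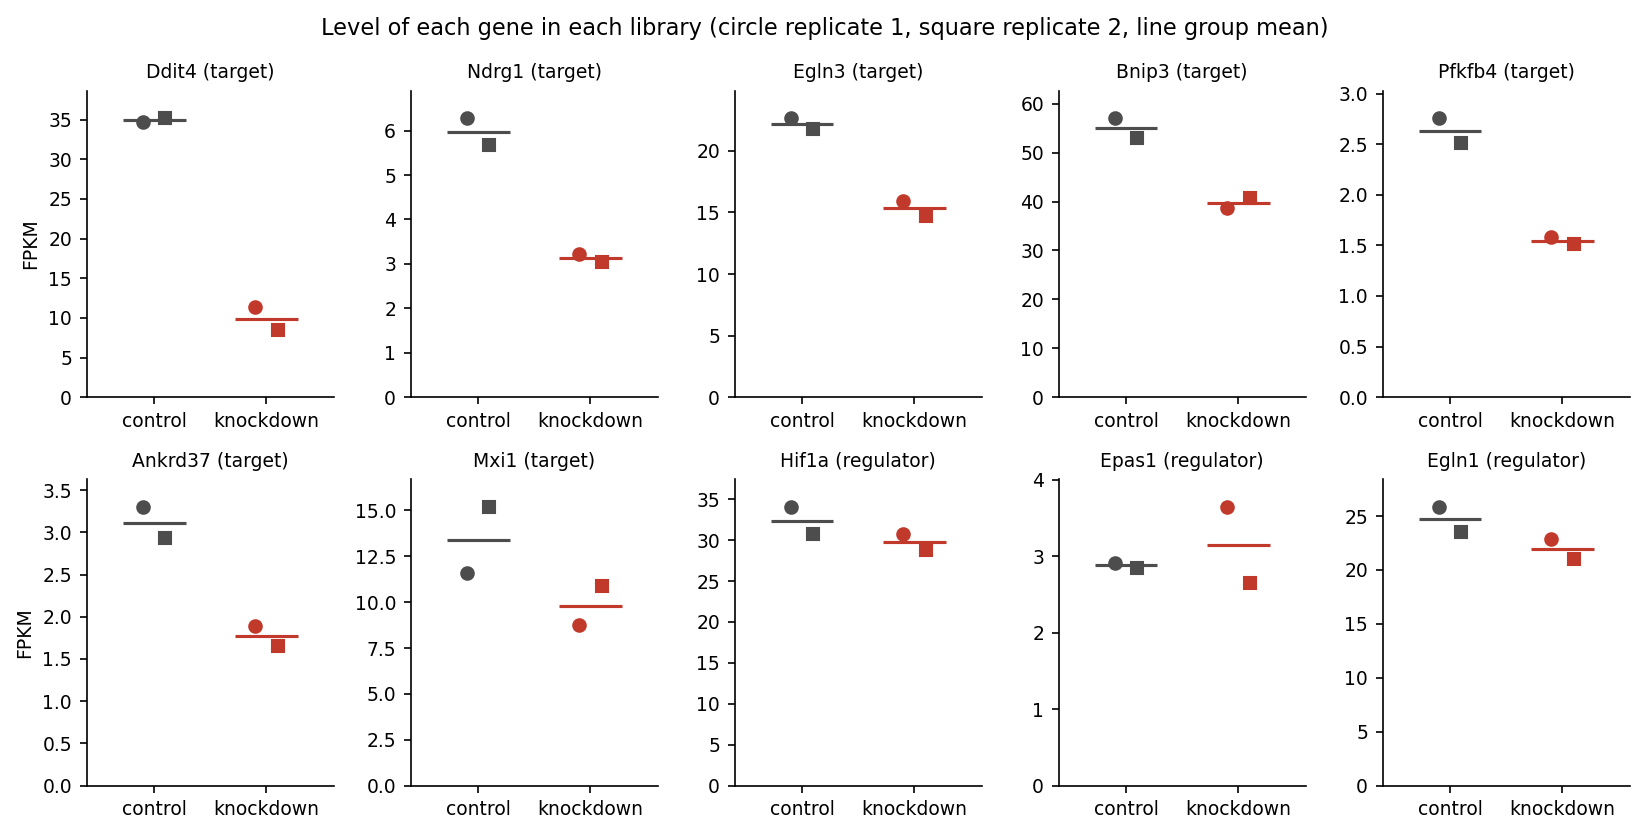
FPKM of the 10 members in each library (circle, replicate 1; square, replicate 2; line, group mean of 2 libraries), grey for control and red for SIX2 knockdown, each panel with its own axis from 0. Every target has both red points below both grey points, by a wide gap in Ddit4 (34.7 and 35.2 against 11.3 and 8.42) and a narrow one in Mxi1 (11.6 and 15.2 against 8.74 and 10.9), while Hif1a and Epas1 overlap.

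Egln3 and Pfkfb4 act on the pathway and on glycolysis. Egln3 (PHD3) is the hydroxylase that HIF induces most readily and so part of the feedback loop; it lies on chromosome 12 (54178981 to 54203860, minus strand). Its FPKM was 22.6 and 21.8 in controls and 16.0 and 14.7 in knockdown libraries, with no overlap between groups and a log2 fold change of -0.50 ± 0.09 (SE). Pfkfb4, on chromosome 9 (108991778 to 109032228, plus strand), makes and breaks fructose 2,6-bisphosphate, the activator of phosphofructokinase. It had 2.75 and 2.51 FPKM in controls and 1.58 and 1.51 FPKM in knockdown libraries, a log2 fold change of -0.73 ± 0.15. Neither passed the threshold (adjusted p = 0.0712 for Egln3 and 0.101 for Pfkfb4). Over 16 alternative fits the adjusted p ran from 0.00120 (DESeq2) to 0.347 for Egln3 and from 0.0112 (DESeq2) to 0.377 for Pfkfb4.

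Bnip3 encodes an outer mitochondrial membrane protein that recruits the autophagy machinery to mitochondria, and lies on chromosome 7 (138890836 to 138909519, minus strand). It was the most abundant member, with 57.0 and 53.0 FPKM in controls and 38.7 and 40.7 FPKM in knockdown libraries. Here knockdown 1 was the lower of the pair, unlike in Ddit4, and the log2 fold change was -0.44 ± 0.08 (SE; edgeR adjusted p = 0.0811, or 0.000901 with DESeq2 and up to 0.295 in other fits). Ankrd37, a small ankyrin-repeat protein gene on chromosome 8 (45996902 to 45999867, minus strand), is a compact HIF target used in hypoxia signatures. It had few counts, 430 and 306 in controls and 244 and 185 in knockdown libraries, or 3.30, 2.93, 1.89 and 1.65 FPKM. Its log2 fold change of -0.77 ± 0.25 (SE, adjusted p = 0.246) was close to that of Pfkfb4, with a wider error. Its exons overlap those of Ufsp2 on the opposite strand, which had 5462, 4338, 4007 and 4506 counts, and whether the counting used the strand is not stated, so the Ankrd37 value is uncertain.

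Mxi1 encodes a MAX partner that opposes MYC, and lies on chromosome 19 (53310518 to 53375810, plus strand). Its FPKM was 11.6 and 15.2 in controls and 8.74 and 10.9 in knockdown libraries. Replicate 2 was the higher one in both groups, and the gap between groups was small: the lower control had 1.05 times the CPM of the higher knockdown library. The log2 fold change was -0.41 ± 0.17 (SE, adjusted p = 0.366), and its 95% interval of -0.84 to 0.01 includes 0. Leaving out control 2 brought the fold change to -0.22 and leaving out knockdown 1 to -0.27.

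None of the 3 regulators passed the threshold. Hif1a, the alpha subunit of HIF-1 (chromosome 12, 73901375 to 73947530, plus strand), had 34.1 and 30.7 FPKM in controls and 30.8 and 28.8 FPKM in knockdown libraries. These ranges overlap, and the log2 fold change was -0.09 ± 0.08 (SE) with a 95% interval of -0.29 to 0.11. Epas1, the alpha subunit of HIF-2 (chromosome 17, 86753700 to 86833410, plus strand), had 2.92 and 2.84 FPKM in controls and 3.65 and 2.65 FPKM in knockdown libraries. Knockdown 1 was above and knockdown 2 below both controls; the log2 fold change was 0.16 ± 0.17, with a 95% interval of -0.24 to 0.57, and turned to -0.08 without knockdown replicate 1. Egln1 (PHD2), the main hydroxylase that marks HIF alpha in normal oxygen (chromosome 8, 124908587 to 124949324, minus strand), had 25.9 and 23.5 FPKM in controls and 22.9 and 21.01 FPKM in knockdown libraries. Its groups did not overlap, but only just (a CPM ratio of 1.00 between the lower control and the higher knockdown library), and the log2 fold change was -0.14 ± 0.09 with a 95% interval of -0.35 to 0.08. The intervals of all 3 regulators include 0, which does not show that these genes were the same in both groups. The adjusted p was 0.712 for Hif1a, 0.742 for Epas1 and 0.569 for Egln1.

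**Figure D3:**
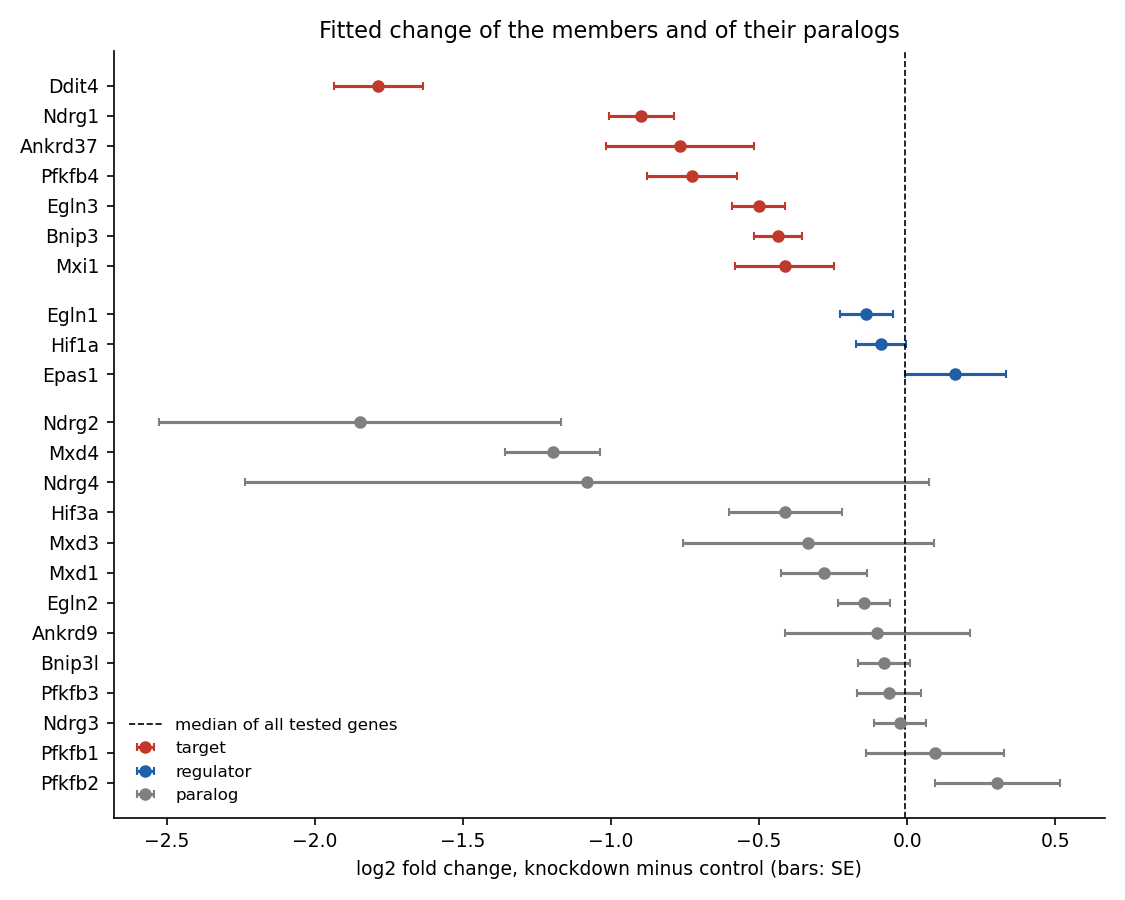
Fitted log2 fold change (knockdown minus control; bars, SE) of the 7 targets, the 3 regulators and the 13 paralogs that were tested, with the median of all tested genes as a dashed line. The targets run from -1.79 to -0.41, the regulators from -0.14 to 0.16, and the paralogs from -1.85 (Ndrg2) to 0.30 (Pfkfb2), with wide bars for Ndrg2 and Ndrg4.

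Levels per gene length were ordered differently in the groups. In controls the order of mean FPKM was Bnip3, Ddit4, Hif1a, Egln1, Egln3, Mxi1, Ndrg1, Ankrd37, Epas1 and Pfkfb4, from 55.0 to 2.63 FPKM, and the ranges of no 2 neighbours overlapped. In knockdown libraries Ddit4 was in the fifth place, after Hif1a, Egln1 and Egln3, at 9.88 ± 2.07 FPKM (SD, n = 2), and its range overlapped that of Mxi1. Ndrg1 was in the eighth place at 3.13 ± 0.12 FPKM, within the range of Epas1. The other neighbours in the knockdown order did not overlap.

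Each target was also set against a regulator of the same library, as a ratio of FPKM, which were already scaled for depth. Such a ratio also carries the spread of the regulator between replicates. The ratio of Ddit4 to Hif1a FPKM was 1.02 and 1.14 in controls and 0.369 and 0.293 in knockdown libraries, so Ddit4 was slightly above Hif1a in controls and below it in knockdown libraries. The ratio of Ndrg1 to Hif1a was 0.184 and 0.185 in controls and 0.105 and 0.106 in knockdown libraries, with replicates closer to each other than in FPKM. For Egln3 against Egln1, 2 hydroxylases of one family, the ratio was 0.876 and 0.925 in controls and 0.698 and 0.699 in knockdown libraries. Against each of the 3 regulators, 6 of the 7 targets had both knockdown ratios below both control ratios. The same held for 15.3% of all tested genes set against Hif1a, 25.7% against Epas1 and 13.1% against Egln1, and nothing is read from the targets' count, since they were selected on this contrast. The exception was Mxi1, whose ratio to Hif1a was 0.341 and 0.494 in controls and 0.284 and 0.378 in knockdown libraries. The difference between targets and regulators was not tested, since both were chosen on this contrast.

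**Figure D4:**
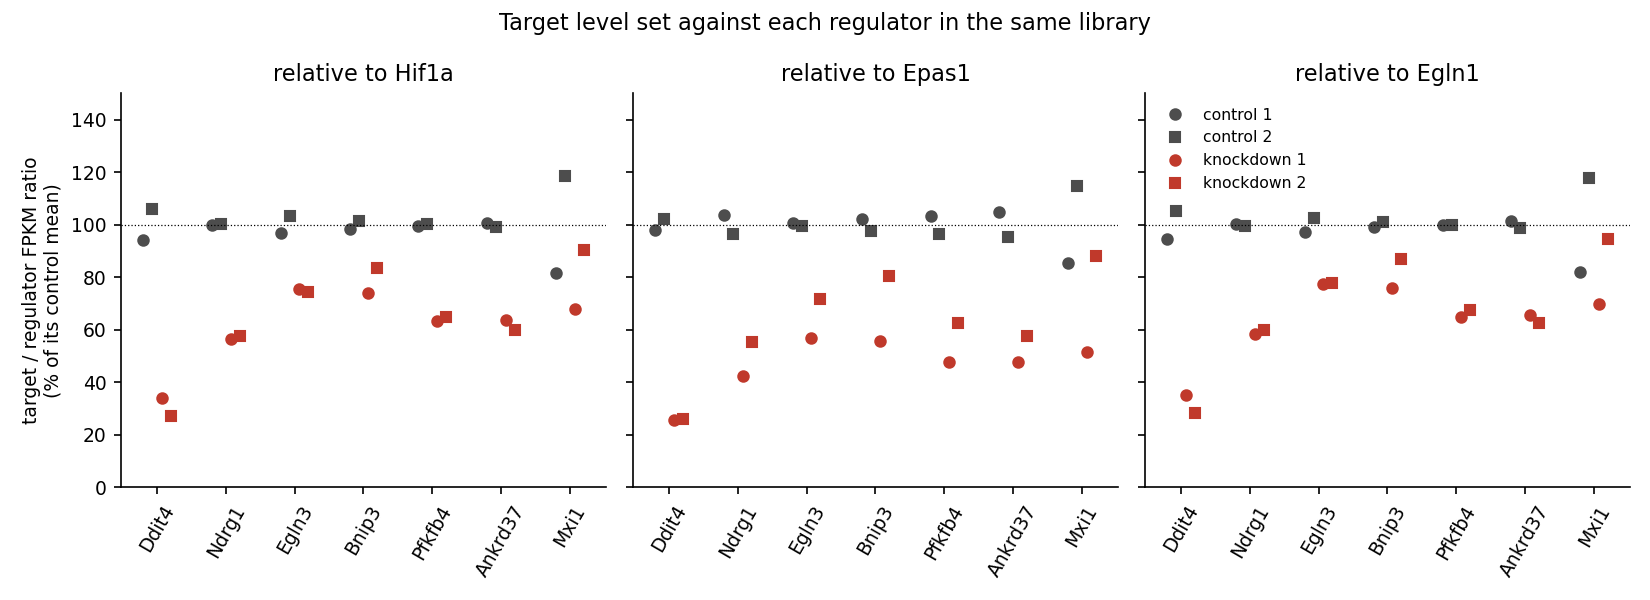
FPKM of each target divided by FPKM of Hif1a, Epas1 or Egln1 in the same library, as a percent of the control mean of that ratio (dotted line at 100%; grey control, red knockdown; circle replicate 1, square replicate 2). Red points lie below grey points for 6 targets in every panel, and for Mxi1 the groups overlap in every panel.

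The closest relatives of the members were read beside them. Of 13 measured, Mxd4 alone passed the threshold (edgeR, 1 lower of 13; median log2 fold change -0.15). Mxd4, like Mxi1 a MAX partner that opposes MYC, had 1.89 and 1.70 FPKM in controls and 0.712 and 0.819 FPKM in knockdown libraries, and fell by 1.20 ± 0.16 on the log2 scale (SE; edgeR adjusted p = 0.0299), a call lost with limma-voom (adjusted p = 0.0664) and with any 1 library left out (0.151 to 0.185), the range over all 16 alternatives being 1.49e-06 to 0.194. Its relatives Mxd1 and Mxd3 had log2 fold changes of -0.28 ± 0.15 and -0.33 ± 0.42 and did not pass. Ddit4l was not analysed here.

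In the NDRG family, Ndrg3 had 8.48 and 8.08 FPKM in controls and 8.34 and 7.56 FPKM in knockdown libraries, with a log2 fold change of -0.02 ± 0.09. Ndrg3 was more abundant than Ndrg1 in each of the 4 libraries. Ndrg2 and Ndrg4, genes best known from brain, were scarce, with 173, 64, 19 and 42 counts for Ndrg2 and 158, 34, 82 and 8 for Ndrg4 (control 1 and 2, knockdown 1 and 2). Their log2 fold changes of -1.85 ± 0.68 and -1.08 ± 1.15 did not pass (adjusted p = 0.287 and 0.753).

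Among the hydroxylases, Egln2 (PHD1) had 17.9 and 18.0 FPKM in controls and 15.3 and 16.4 FPKM in knockdown libraries, a log2 fold change of -0.15 ± 0.09 close to that of Egln1. Bnip3l (NIX), the other mitophagy receptor of the Bnip3 family, had 20.7 and 19.7 against 17.8 and 19.5 FPKM, a log2 fold change of -0.08 ± 0.09 with overlapping groups. Of the other fructose 2,6-bisphosphate enzymes, Pfkfb3 had 4.38 and 3.96 against 3.88 and 3.93 FPKM, a log2 fold change of -0.06 ± 0.11, and Pfkfb1 and Pfkfb2 had 0.09 ± 0.23 and 0.30 ± 0.21. Hif3a, another alpha subunit, had -0.41 ± 0.19 with groups that did not overlap, and Ankrd9 had -0.10 ± 0.31. None of these passed.

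Wider lists drawn up for the pathway gave few calls. The oxygen-sensing machinery (18 genes, all tested: ARNT proteins, hydroxylases, VHL complex, coactivators, chaperones) had 0 called by edgeR, 3 at an unadjusted p under 0.05, all higher, and 1 called by DESeq2 (Hsp90ab1). Its median log2 fold change was -0.03. The 2 most abundant, the chaperone genes Hsp90ab1 and Hsp90aa1, had log2 fold changes of 0.26 ± 0.07 and -0.01 ± 0.09. Vhl, the substrate receptor for hydroxylated HIF alpha, was named after its values were seen: it had 6.34 and 5.97 FPKM in controls and 3.25 and 5.33 FPKM in knockdown libraries, with most of its difference in knockdown 1 (log2 fold change -0.49 ± 0.24, adjusted p = 0.452).

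Glycolytic hypoxia targets, 20 genes of glucose uptake, glycolysis and lactate export, gave no call. EdgeR called 0, DESeq2 called 0, and 0 passed an unadjusted p of 0.05, although 17 of 20 fitted values lay below 0 (51.1% of all tested genes did). Their median log2 fold change was -0.11. Pgam1, the phosphoglycerate mutase, had 936 and 722 FPKM in controls and 703 and 661 in knockdown libraries, with control 1 above the other 3, and its log2 fold change was -0.25 ± 0.13. Ldha, the lactate dehydrogenase subunit raised by HIF-1, had 805 and 736 against 746 and 698 FPKM and a log2 fold change of -0.06 ± 0.08. Gapdh and Aldoa were both named after their values were seen. Gapdh had 2918 and 17200 counts in controls and 8911 and 3508 in knockdown libraries. Aldoa had 62 and 79 against 86 and 49 counts. Gapdh has many near-identical copies in the mouse genome. The part of such copies in these counts was not tested, so the values of both genes are uncertain.

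The other hypoxia targets, 36 listed and 29 tested, were split. EdgeR called 0 and DESeq2 2 (Tfrc higher and Ero1l lower), while 7 reached an unadjusted p under 0.05 (3 higher, 4 lower), and the median log2 fold change was -0.03. The 2 most abundant, the haem oxygenase gene Hmox1 and the mitochondrial protein gene Fam162a, had log2 fold changes of 0.06 ± 0.08 and 0.02 ± 0.09. The 4 lower ones, named after their values were seen, were Ero1l (-0.42 ± 0.08), an oxidase of the endoplasmic reticulum, the glycogen synthase gene Gys1 (-0.46 ± 0.16), Plod2 (-0.27 ± 0.11) and Zfp395 (-0.31 ± 0.12). The 3 higher ones, likewise named afterwards, were the transferrin receptor gene Tfrc (0.37 ± 0.08), Plod1 (0.27 ± 0.08) and Car12 (0.21 ± 0.08). Vegfa, the best known HIF target, also named afterwards, had 5.997 and 7.17 FPKM in controls and 6.23 and 6.87 in knockdown libraries, a log2 fold change of 0.03 ± 0.13.

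**Figure D5:**
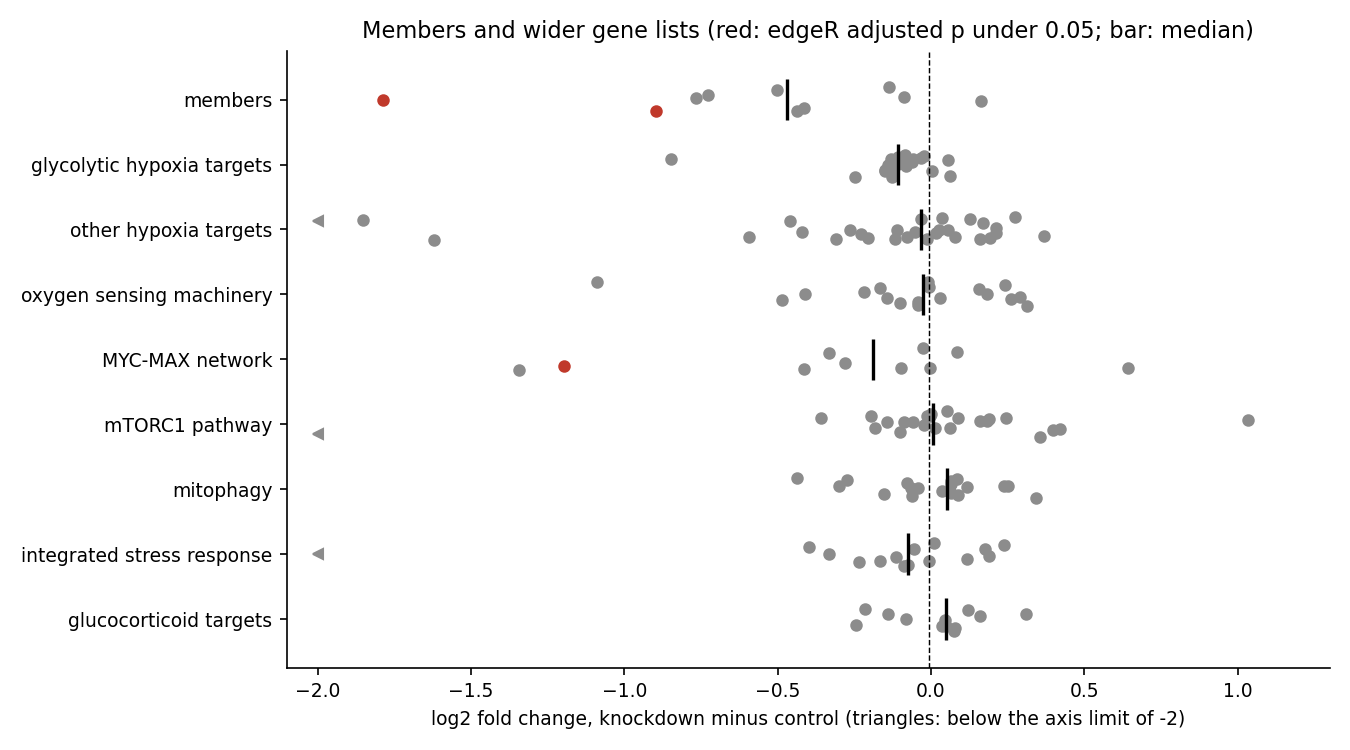
Fitted log2 fold change (knockdown minus control) of each tested gene in the members and 8 wider lists; red points passed an edgeR adjusted p of 0.05, black bars are medians, the dashed line is the median of all tested genes and triangles are scarce genes below the axis limit. The members hold 2 red points, Ddit4 and Ndrg1, the MYC-MAX list holds 1, Mxd4, and the other lists hold 0, with medians from -0.11 to 0.05. The member Mxi1 is also in the MYC-MAX list and the member Bnip3 in the mitophagy list.

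Lists around what the members do were also read. In the mTORC1 pathway, which REDD1 restrains, edgeR called 0 of 24 genes, DESeq2 1 (Eif4ebp2) and an unadjusted p under 0.05 was reached by 3, all higher, with a median log2 fold change of 0.01. The most abundant, Rps6 and Akt1, had 0.06 ± 0.07 and -0.02 ± 0.08. These are mRNA levels of pathway components, and mTORC1 activity was not measured. In the mitophagy list, edgeR called 0 of 18 and DESeq2 2 (Gabarapl1 higher and the member Bnip3 lower), 2 genes reached an unadjusted p under 0.05 in each direction, and the median was 0.05; the most abundant, Gabarap and Phb2, had 0.04 ± 0.07 and 0.07 ± 0.07. In the MYC-MAX network, which includes the member Mxi1, 1 of 10 was called lower, Mxd4 again, with a median of -0.19. Myc itself, named after its values were seen, had 141, 153, 79 and 40 counts and did not pass (log2 fold change -1.34 ± 0.46, adjusted p = 0.262).

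Ddit4 is also induced by ATF4 and by the glucocorticoid receptor, and mRNA levels of listed genes of both responses were read. Of 15 integrated stress response genes edgeR and DESeq2 called 0, and 1 reached an unadjusted p under 0.05, with a median log2 fold change of -0.07. Phgdh and Psat1, serine synthesis genes driven by ATF4 and the most abundant of the list, had 0.12 ± 0.07 and -0.07 ± 0.07. Of 12 glucocorticoid targets edgeR called 0, DESeq2 1 (Fkbp5, higher), and 1 reached an unadjusted p under 0.05, with a median of 0.05. Nfkbia and Cebpd, the most abundant, had 0.08 ± 0.08 and 0.16 ± 0.11. The activity of ATF4 and of the glucocorticoid receptor was not measured. Their part in the lower Ddit4 values was not tested.

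Cell identity was read from markers. Of the microglia and macrophage markers, Tyrobp, Cd68 and Fcer1g, named after their values were seen, were abundant in every library (259.9 to 485 FPKM), while Cx3cr1, a marker of microglia in the brain also named afterwards, had only 30, 27, 19 and 54 counts. Of the 10, Csf1r and Aif1 passed and were lower in knockdown libraries (log2 fold change -0.48 ± 0.07 and -1.04 ± 0.16, edgeR adjusted p = 0.0426 and 0.0440), both calls being lost with any 1 library left out. Trem2, a lipid receptor of microglia named after its values were seen, went the other way, with 10.6 and 11.1 FPKM in controls and 15.8 and 13.7 FPKM in knockdown libraries (log2 fold change 0.48 ± 0.10); it did not pass with edgeR (adjusted p = 0.0969) and was called higher by DESeq2. DESeq2 also called Csf1r and Aif1 lower, and the median of the 10 markers was -0.03. Traces of neural and glial transcripts, summed by cell type, were lower in both knockdown libraries than in both controls, and lowest in knockdown 2. The summed FPKM of 6 neuron markers was 0.857 and 0.961 in controls, 0.405 in knockdown 1 and 0 in knockdown 2, and that of 5 oligodendrocyte markers 2.08, 1.88, 1.24 and 0.0444. The sum of 5 astrocyte markers was 0.688, 0.596, 0.329 and 0.228 FPKM, that of 4 endothelial markers 21.3 to 22.7 FPKM, nearly all Kdr, and that of 4 fibroblast markers at most 0.0707 FPKM. None of these 24 genes was called by edgeR or DESeq2, and 1 of the 16 tested reached an unadjusted p under 0.05. The part of these traces in the lower values of Ndrg1, Ndrg2 and the other genes was not tested.

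The genes whose pattern over the 4 libraries was nearest to that of a member were found among 9377 officially named genes averaging 5 CPM or more, by Euclidean distance between log2 CPM centred on each gene's mean. Among those nearest to Ddit4 were Gda (distance 0.328), guanine deaminase, and Kif3c (0.351), a kinesin. Gda had 24.2 and 20.4 CPM in controls and 9.30 and 5.69 CPM in knockdown libraries. Nearest to Ndrg1 were Ncoa5 (0.0373), Mras (0.0864) and Rsad2 (0.0959), the last encoding viperin, an interferon-induced antiviral enzyme. Ncoa5, a nuclear receptor coactivator gene, had 97.0 and 89.9 CPM in controls and 51.4 and 48.5 CPM in knockdown libraries. These distances from Ddit4 were larger than those from Ndrg1. Over 4 libraries in 2 groups, nearness says little more than that the groups differed by a like amount.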

How the data were processed

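RNA sequencing (oligo-dT capture, dUTP libraries, paired-end, per the labels' protocols) measured 4 libraries. The deposited estimated counts per Ensembl gene were whole numbers, not normalised. The deposited FPKM, named so per the file headers, had been scaled for gene length and depth by the authors. The submitters' processing notes name Bowtie 0.12.2 and build mm8; no counting program is named in the sources used here. Coordinates of 86.4% of genes were identical to GENCODE M21 (GRCm38), the build used here. Another 12 value columns match no labelled sample and were not used.

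Tests on counts used edgeR 4.0.16 in R 4.3.3 (genes kept by filterByExpr, TMM factors, two-sided quasi-likelihood F test with the robust option, no covariate), adjusted by Benjamini-Hochberg over 15733 genes. CPM are TMM-scaled. SE come from the fitted fold change and F. Alternatives used DESeq2 1.42.0, limma 3.58.1 and other scalings, filters and left-out libraries. The scripts were tested on simulated counts. Tables and motif matches used Python 3.11.15, pandas 2.3.3 and numpy 2.4.6.

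The members, lists and tests were chosen with earlier results of these data known. Genes named are all members, Six2, every paralog, up to 4 called genes of each list (or the 2 with the highest FPKM where none was called) and the 3 nearest patterns to Ddit4 and Ndrg1; 1 gene this would name is not reported here. Eif4ebp2, Gabarapl1 and Fkbp5 were named because DESeq2 called them, and Kdr for its share of the endothelial sum. Ufsp2 was named for its overlap with Ankrd37. Other genes were named after their values were seen and are marked so. Replicates of a group differed by more than counting error (chi-square of fragments over its degrees of freedom, 17.5 for control and 18.2 for knockdown).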

Additional observations from a re-analysis of the deposited data

How the results depend on the processing

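With 2 libraries a group, the calls depended on the test and its settings. The 150 genes called became 297 if scarce genes were kept, 681 in DESeq2, 65 in limma-voom, 7 without the robust option, and 3 in limma-trend on FPKM, whether 1 or 0.1 was added before the logarithm. Leaving out 1 library gave 6 to 17. Of the members, 2 were called, against 5 with DESeq2 (681 of 16140 genes) and 4 with no filter (297 of 22759 genes). Without the robust option and with limma-trend on either FPKM scale, 0 members were called. In these fits 6 members reached an unadjusted p under 0.05, and so did 2140, 2159 and 2133 of 15733 genes. The members were selected on this contrast, so nothing is read from how many of them pass in any fit. Both DESeq2 and the fit with no filter added Egln3 and Bnip3 (adjusted p = 0.0354 and 0.0389 with no filter), and DESeq2 also added Pfkfb4. Ddit4 passed in 9 of 16 alternatives, with fold changes from -2.02 to -1.59, and Ndrg1 in 8 of 16, from -0.98 to -0.75; without the robust option their adjusted p was 0.0563 and 0.0634. The median log2 fold change of the targets was -0.51 on log2(FPKM + 1), where the added 1 shrinks low genes, and -0.80 to -0.65 with a library left out. Epas1 turned to -0.0836 without knockdown replicate 1 (adjusted p = 0.868) and stood between that and 0.371 with other libraries left out. The regulators' median (-0.09) moved by less than the spread between replicates (SD 0.126) in all 16 alternatives, but with 1 library left out it ran from -0.167 (without control replicate 2) to -0.00582 (without control replicate 1). Replicate numbers are shared by the groups, but no label says that they pair libraries, and same-numbered libraries did not deviate together (r = -0.185 across 9982 genes). With the replicate number as a block, 0 genes and 0 members were called (2055 genes and 7 members at an unadjusted p under 0.05; Ddit4 adjusted p = 0.0550). A crossed pairing, chosen after seeing the data, called 119 genes and 2 members. Depth limits Ankrd37, Ndrg2 and Ndrg4, which rest on few fragments.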

Other observations

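The 2 libraries of a group differed from each other in several hypoxia genes, whether or not the groups also separated; these genes were chosen after their values were seen. Ak4, a mitochondrial adenylate kinase and HIF target, had 6746 and 4981 counts in controls, 1312 in knockdown 1 and 5977 in knockdown 2. Its log2 fold change of -0.59 ± 1.08 (SE, edgeR adjusted p = 0.889) thus came from 1 library. Vhl, the E3 ligase subunit, was likewise lowest in knockdown 1, with 814 counts against 1142 in knockdown 2. Epas1 was highest in the same library, at 1698 counts against 1061 in knockdown 2. Bnip3 was only slightly lower in knockdown 1 than in knockdown 2 (98.4 against 104 CPM), a smaller gap than between its controls (143 and 131 CPM). Ddit4 was higher in knockdown 1 than in knockdown 2 (22.4 against 16.7 CPM). Arnt2, the ARNT relative found mostly in neurons, had 160, 58, 67 and 33 counts, highest in control 1 as Ndrg2 and Ndrg4 were.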
